A study of Mus musculus with 2 samples.

Results

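The genes described here are the hair keratins, trichohyalin and the keratin-associated proteins, measured in single cells of mouse dorsal skin. They were chosen by symbol from the 32285 genes of the matrices: every Krtap gene, the inner root sheath keratins Krt25 to Krt28 and Krt71 to Krt73, the hair shaft keratins Krt31 to Krt36 and Krt81 to Krt86, and Tchh. That gave 77 genes, of which 8 belonged to the inner root sheath group, 12 were shaft keratins and 57 were keratin-associated proteins. Krt74 and Krt85 were not analysed here. A gene entered the counts when it had at least 20 unique molecular identifiers (UMIs, each marking 1 captured RNA molecule) over both libraries, which left 49 genes: 8 of the inner root sheath group, 10 of the shaft and 31 keratin-associated proteins.

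The study compared 2 droplet libraries of skin at postnatal day 3, 1 from mice of the genotype Wildtype (the control library) and 1 of the genotype miR-200b induced (the induced library). The treatment of both is given as Dox. The labels name neither the construct, the promoter that drives the induction nor the number of animals in a library. Epidermis and dermis were dissociated apart and combined at 30 to 70, and there was 1 library per group, so no replicate error exists and no test between the groups was possible.

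Hair keratins form the filaments of the hair shaft, in pairs of a type I and a type II protein, and the keratin-associated proteins form the matrix in which these filaments lie and are cross-linked through cysteines. The inner root sheath, which encloses and moulds the growing shaft, uses keratins of its own together with trichohyalin, a protein of its granules that is cross-linked into the hardened sheath. In the bulb of the follicle both lineages arise from matrix cells and switch their genes on in steps as the cells move up, with Krt35 among the early shaft keratins and most keratin-associated proteins late.

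There were 9072 barcodes with 100409201 UMIs in the control matrix, and 9114 barcodes with 119705137 UMIs in the induced one. Barcodes with at least 1000 UMIs, at least 500 genes and under 15% mitochondrial UMIs were kept, 5178 of the control and 5258 of the induced library, with medians of 14748 and 18019.5 UMIs. The libraries shared 74 barcodes, 10 of them kept in both. Clustering gave 32 epithelial and 14 non-epithelial clusters, and 23 of the 32 epithelial clusters drew at least 95% of their cells from 1 library. Intervals below are at 95% and cover counting error only. The median gene differed by -0.12 (log2, induced over control, over 6003 genes whose mean level reached 20 CPM); CPM are UMIs scaled to a library total of 1000000.

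The promoters of these genes shared a sequence feature that the choice of genes did not use. RefSeq promoters (GRCm38.p6, 250 bases before to 50 after the start) were matched by symbol for 66 of the 77 genes. The letters TATAAA, the core of the TATA box, occurred on the gene's strand in 52 of these 66 promoters (78.8%), against 9.77% of 27025 promoters of all genes. On either strand the shares were 81.8% and 15.7%. In 39 of the 66 (59.1%) the motif began 25 to 40 bases before the start, with a median of 31, against 2.31% of all genes. It occurred on the gene's strand in 6 of 8 promoters of the inner root sheath group, 4 of 7 of shaft keratins and 42 of 51 of keratin-associated proteins. A match describes these letters only. The windows of 30 bases below, from 45 to 16 bases before the start, are shown for the genes whose values are described in most detail, one or more from each group, with TATAAA in capitals; the window of Krtap15 has no match.
Krt25 (chr11:99322967-99322996, minus strand): cccttgagaatcgtcTATAAAagggcaaac
Krt71 (chr15:101743113-101743142, minus strand): gcataTATAAAggcacctgctggtcctcac
Krt31 (chr11:100050567-100050596, minus strand): ccctctgtagaaggctTATAAAgtctcacc
Krt32 (chr11:100088285-100088314, minus strand): cccttcacttcaagagTATAAAaaggcctg
Krtap8-1 (chr16:89487968-89487997, minus strand): ccccccagtcggggtaTATAAAgatggtct
Krtap3-1 (chr11:99566646-99566675, minus strand): ggcgggtaTATAAAagccagggcagacgac
Krtap17-1 (chr11:99994010-99994039, minus strand): ctgggtgagggggaTATAAAagctgctgtc
Krtap15 (chr16:88828964-88828993, plus strand): atataagggcccaggttagacggtggtatt

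In the sum over all kept cells, each of the 3 groups stood higher in the induced library. The inner root sheath keratins and Tchh had 78.2 CPM (76.5 to 80.0) in the control and 211.3 (208.6 to 214.0) in the induced library (log2 ratio 1.43, 1.40 to 1.47). The shaft keratins had 39.5 CPM (38.3 to 40.8) and 126.0 (123.9 to 128.1), a log2 ratio of 1.67 (1.62 to 1.72). The keratin-associated proteins had 14.8 CPM (14.1 to 15.6) and 171.8 (169.4 to 174.2), a log2 ratio of 3.53 (3.45 to 3.61). In such sums, more cells and more RNA per cell cannot be told apart. Of the 49 genes, 44 were at least 2-fold higher in the induced library, where 9.71% of 17143 genes were, and 1 was at least 2-fold lower, where 12.2% were. The 44 comprised 6 of 8 inner root sheath genes, 8 of 10 shaft keratins and 30 of 31 keratin-associated proteins. Many of them passed the minimum only through the induced library: 11 of the 31 keratin-associated proteins had no UMI in the control cells and 22 had 3 or fewer, so the count of 44 describes the list and supports nothing by itself.

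**Figure D1:**
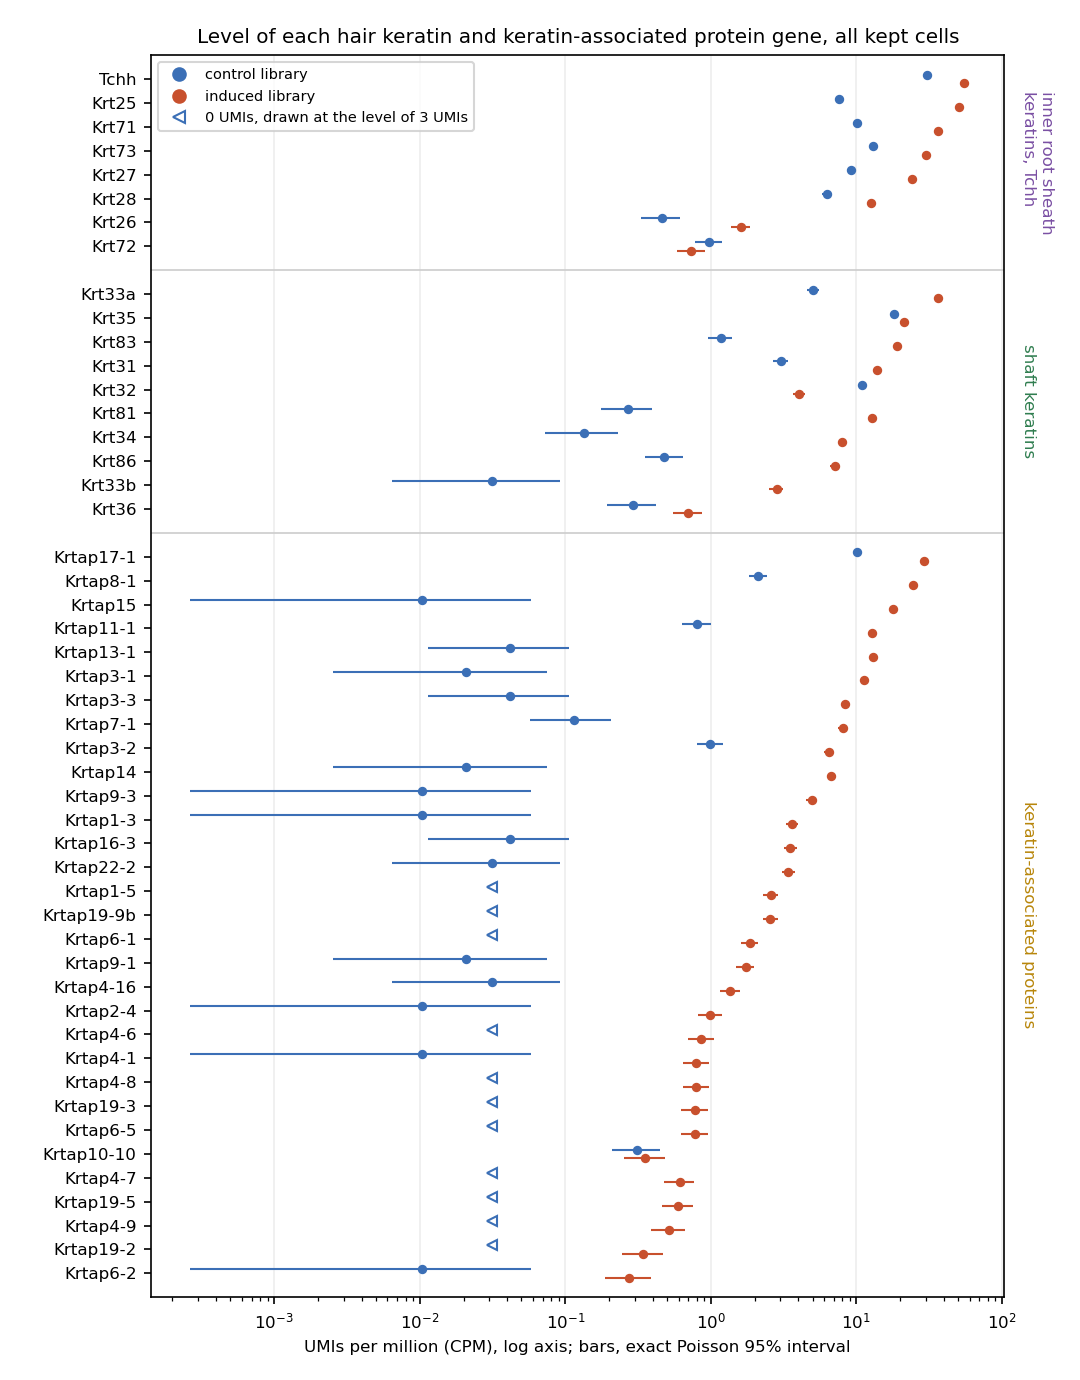
CPM of each of the 49 genes (log axis) in the control library (blue) and the induced library (orange) over all kept cells, grouped by role, with exact Poisson 95% intervals; open triangles mark 0 UMIs and are drawn at the level of 3 UMIs. Krt32 lies lower in the induced library, Krt72, Krt35 and Krtap10-10 lie close together, and most keratin-associated proteins lie at or near 0 in the control library.

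Among the inner root sheath genes, the type I keratin Krt25 had 734 UMIs in 72 cells of the control library and 5722 UMIs in 327 cells of the induced library. That was 7.65 CPM against 50.6, a log2 ratio of 2.72 (2.61 to 2.84). These cell counts start at 1 UMI, and the libraries differ in depth. Over both libraries, 38 cells had at least 5 UMIs of Krt25. Krt71, a type II partner in all layers of the sheath, had 10.1 and 36.5 CPM (log2 1.85, 1.75 to 1.95). Of its induced UMIs 3070 lay in 1 cell, and without the cell with most Krt71 in each library the levels were 7.63 and 9.41 CPM (log2 0.30, 0.16 to 0.44). With each cell thinned to 2000 UMIs, Krt71 was found in 1.06% of control and 0.763% of induced cells. Krt73, the type II keratin of the sheath cuticle, had 13.0 and 30.0 CPM (log2 1.20, 1.11 to 1.30). Tchh, which encodes trichohyalin, had 30.5 CPM (2925 UMIs in 845 cells) and 54.9 CPM (6215 UMIs in 1214 cells), a log2 ratio of 0.85 (0.79 to 0.91). Krt27 and Krt28, further type I keratins, had log2 ratios of 1.40 (1.29 to 1.51) and 1.01 (0.88 to 1.15). Krt26, a type I keratin of the cuticle, had 44 UMIs in 4 control cells and 182 in 8 induced cells. Krt72, like Krt73 a cuticle keratin, was the exception of the group with 93 and 83 UMIs, and its interval included no difference (log2 -0.40, -0.85 to 0.04). Without the cell with most UMIs of the gene in each library, the log2 ratio was 2.37 for Krt25, 0.95 for Krt73, 0.27 for Tchh and 0.98 (0.16 to 1.87; 18 and 42 UMIs) for Krt72.

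Among the shaft keratins, the direction differed between genes. The type I keratin Krt33a had 5.03 CPM in the control and 36.4 in the induced library (log2 2.86, 2.72 to 2.99). Krt31, another type I keratin of the cortex, had 3.01 and 13.8 CPM (log2 2.19, 2.01 to 2.38), and the type II keratin Krt83 had 1.17 and 19.1 CPM (log2 4.03, 3.76 to 4.32). Krt35, the early type I keratin of matrix and lower shaft, was close in both, with 17.997 CPM (17.2 to 18.9; 1726 UMIs in 77 cells) and 21.2 CPM (20.3 to 22.1; 2397 UMIs in 172 cells). Its log2 ratio was 0.24 (0.15 to 0.33). Krt32, a type I keratin of the shaft cuticle, was the only gene of the 49 at least 2-fold lower, with 1052 UMIs in 648 control cells and 458 UMIs in 336 induced cells (log2 -1.44, -1.60 to -1.28). Krt81, Krt34, Krt86, Krt33b and Krt36 had 26, 13, 46, 3 and 28 UMIs in the control library and 1440, 907, 801, 320 and 79 in the induced library. Krt32 overlaps the antisense gene Gm11571, and whether the deposited counts used strand is not given in the sources used here.

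The keratin-associated proteins showed the widest ratios. Krtap8-1 had 2.11 CPM (202 UMIs in 138 cells) in the control and 24.7 CPM (2790 UMIs in 157 cells) in the induced library (log2 3.55, 3.34 to 3.76). Krtap11-1 had 77 and 1438 UMIs (log2 3.98, 3.65 to 4.33). Krtap15 had 1 UMI in the control and 2005 in the induced library (log2 10.73, 8.25 to 16.04), Krtap3-1 had 2 and 1276 (log2 9.08, 7.22 to 12.13) and Krtap9-3 had 1 and 558 (log2 8.89, 6.40 to 14.19). These were the 3 highest ratios among members with at least 100 UMIs and a UMI in the control library. They rest on 1 induced cell: without the top cell, 62, 36 and 8 induced UMIs remained of Krtap15, Krtap3-1 and Krtap9-3, and the log2 ratio of Krtap11-1 was 1.84. The cell filter weighs on these ratios too. With no cell filter they were 6.86 for Krtap15, 5.59 for Krtap3-1, 6.56 for Krtap9-3, 2.89 for Krtap11-1 and 2.20 for Krtap8-1. Of genes with no UMI in the control cells, Krtap1-5 was at least 82.5-fold higher, Krtap19-9b at least 81.9-fold and Krtap19-2 at least 11.0-fold, against a floor of 3 UMIs in the library. These bounds rest on 1 induced cell each: without it, 7, 4 and 0 UMIs of these genes remained. Krtap17-1 was of another kind: it had 964 UMIs in 274 control cells and 3279 in 472 induced cells, 10.1 CPM against 28.98 (log2 1.53, 1.42 to 1.63). Krtap10-10, which lies within Tspear, had 30 and 40 UMIs. Krtap15 overlaps Krtap14 on the opposite strand, so their reads may not be told apart.

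Apart from Tchh on chromosome 3 and Krtap10-10 on chromosome 10, the measured genes lie in 3 gene clusters. On chromosome 11, 15 of the 31 measured keratin-associated proteins and the 11 measured type I keratins lay between positions 99315516 and 100105626. On chromosome 16, 15 keratin-associated proteins lay between 88610705 and 89571183, and on chromosome 15 the 6 measured type II keratins lay between 101459061 and 101802346 (GRCm38, GENCODE). Some members are near copies: 14 of the 49 shared a stretch of 60 bases near their 3′ end with another gene, and in 1 of them, Krtap15, at least 20% of such stretches were shared. Counts of those genes are uncertain to that extent.

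The UMIs of these groups lay in very few cells, and this differed between the libraries. In the induced library, 1 cell held 10596 of the 14251 shaft keratin UMIs (74.4%) and 15065 of the 19432 keratin-associated protein UMIs (77.5%). In the control library the cell with most held 16.6% of the shaft keratin UMIs, and the one with most keratin-associated protein UMIs held 3.16%. Of the inner root sheath UMIs, the top cell held 10.2% in the control and 39.4% in the induced library. The number of cells that together held 50% of the UMIs was 14 in the control and 3 in the induced library for the inner root sheath group, 8 and 1 for the shaft keratins, and 52 and 1 for the keratin-associated proteins. A single induced cell held at least 50% of the UMIs of 38 of the 49 genes, among them 29 of 31 keratin-associated proteins, 7 of 10 shaft keratins and 2 of 8 inner root sheath genes. Many genes have too few control UMIs for the same count there. Over the 21 genes with at least 20 UMIs in each library, a single cell held at least 50% for 6 in the control and 10 in the induced library.

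**Figure D2:**
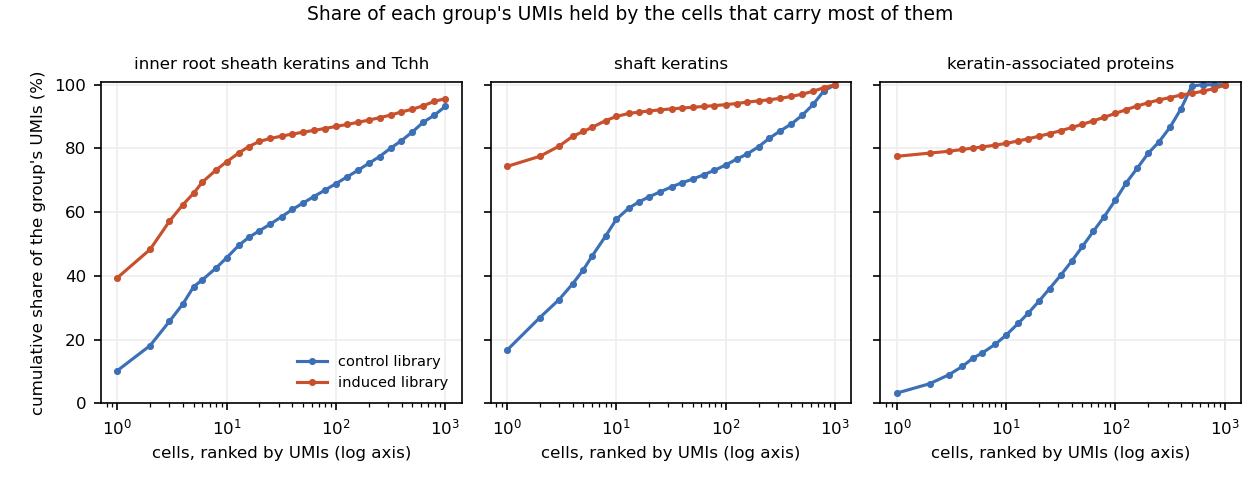
Cumulative share of each group's UMIs (vertical axis, %) against the number of cells, ranked by their UMIs of that group (log axis), in the control (blue) and the induced library (orange). The induced curves for shaft keratins and keratin-associated proteins start at 74.4% and 77.5% with the first cell, the control curves at 16.6% and 3.16%.

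The cell that carried most of the shaft program in the induced library had 86413 UMIs and 5083 detected genes, and 29.7% of its UMIs came from members. It held 3723 UMIs of Krt33a, 2398 of Krtap8-1, 2024 of Krt83, 1943 of Krtap15, 1407 of Krt81, 1305 of Krt31 and 1290 of Krtap11-1, and no UMI of an inner root sheath gene. It detected 47 members, 37 of them keratin-associated proteins, and had 51 UMIs of Hoxc13, a homeobox regulator of hair keratin genes. The next induced cell was its counterpart for the sheath: of its 21657 UMIs, 9409 came from inner root sheath genes, with 3070 of Krt71, 2805 of Krt25, 2745 of Tchh and 772 of Krt27, and 1 from a shaft keratin. The most loaded control cells were smaller. The control cell with most shaft UMIs had 339 of Krt33a, 184 of Krt31, 75 of Krt83 and 42 of Krtap11-1, and the one with most inner root sheath UMIs had 290 of Krt27, 240 of Krt71 and 197 of Tchh.

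Leaving out the 1 cell with most UMIs of a group in each library changed the picture by group. The shaft keratins then had 33.0 CPM (31.8 to 34.1) in the control and 32.3 CPM (31.3 to 33.4) in the induced library, with a log2 ratio of -0.03 (-0.10 to 0.04). Krt32, which was lower in the induced library, made up 1050 of these 3160 control UMIs and 457 of the 3655 induced ones, and the other shaft keratins had 22.0045 and 28.3 CPM (log2 0.36, 0.28 to 0.44). The keratin-associated proteins had 14.4 and 38.6 CPM (log2 1.43, 1.34 to 1.51), most of it Krtap17-1 (964 of 1379 and 3278 of 4367 UMIs), and 4.33 and 9.63 CPM without that gene (log2 1.15, 0.99 to 1.32). The inner root sheath group had 70.3 and 128.1 CPM (log2 0.87, 0.83 to 0.91). Without the 10 cells with most member UMIs in each library, the log2 ratios were 0.27 (0.21 to 0.32) for the inner root sheath group, 0.01 (-0.07 to 0.09) for the shaft keratins and 1.36 (1.27 to 1.45) for the keratin-associated proteins. They were 0.67 (0.57 to 0.77) for shaft keratins other than Krt32 and 0.86 (0.68 to 1.03) for keratin-associated proteins other than Krtap17-1. Then 12 of 27 members were at least 2-fold higher (9.39% of all genes), 4 of them with 3 or fewer control UMIs and so fixed by the minimum (Krtap3-1, Krtap3-3, Krtap13-1 and Krtap15), and Krt26, Krt32 and Krt72 were lower (12.3%). For single genes, leaving out the cell with most UMIs of that gene in each library took the log2 ratio of Krt33a from 2.86 to 1.22 (0.94 to 1.51), of Krt31 from 2.19 to 1.05 (0.72 to 1.39), of Krt83 from 4.03 to 1.64 (1.11 to 2.21) and of Krtap8-1 from 3.55 to 0.87 (0.61 to 1.13). Krt32 (-1.44), Krt35 (0.24) and Krtap17-1 (1.54) stayed within their intervals. Without the top sheath cell and the top shaft cell of each library, 27 members had 20 UMIs, of which 15 were at least 2-fold higher (9.47% of all genes) and Krt32 alone at least 2-fold lower (12.2%). Of those 15, 4 were inner root sheath genes (Krt25, Krt26, Krt27 and Krt73), 4 shaft keratins (Krt31, Krt33a, Krt34 and Krt83) and 7 keratin-associated proteins, among them the same 4 with 3 or fewer control UMIs. The single cell with most member UMIs was a shaft cell in the induced and a sheath cell in the control library, so leaving out only these lowers the shaft ratios and raises those of the sheath by construction; 12 of 27 members were then at least 2-fold higher (9.44%).

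**Figure D3:**
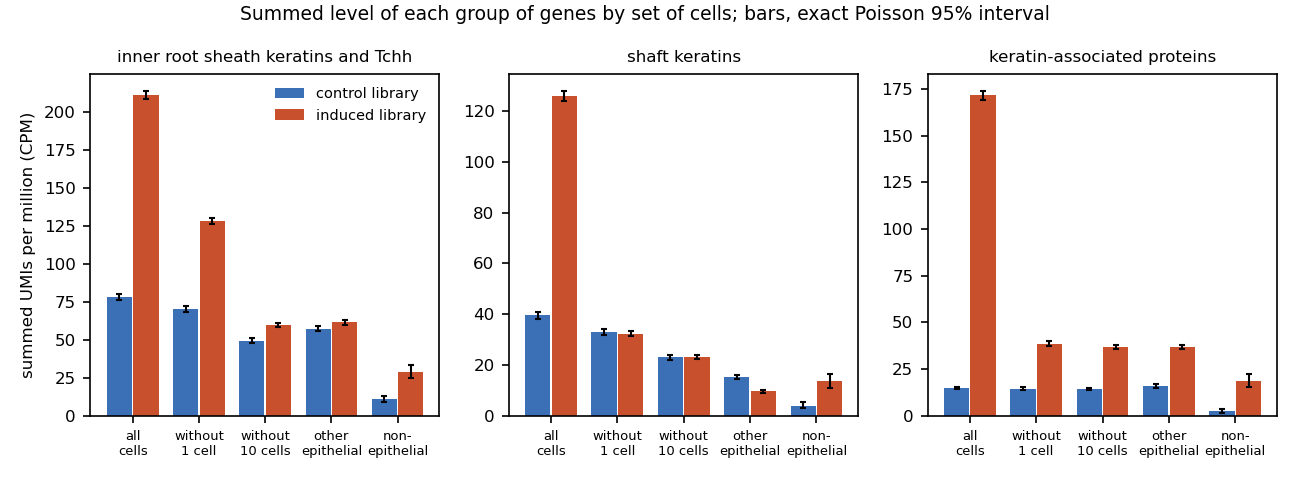
Summed CPM of each group (bars from 0, exact Poisson 95% intervals) in the control (blue) and induced library (orange), for all kept cells, without the 1 cell with most UMIs of that group in each library, without the 10 cells with most member UMIs, in epithelial cells outside the S100a3 cluster, and in non-epithelial cells. For shaft keratins the induced level was 126.0 CPM with and 32.3 CPM without 1 cell, next to 33.0 CPM in the control without its own top cell.

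Most cells with many UMIs of these genes carried mainly sheath genes or mainly shaft keratins and keratin-associated proteins. With at least 60 member UMIs there were 26 control and 36 induced cells. In 15 control and 21 induced cells at least 90% of the member UMIs were from inner root sheath genes, and in 9 and 14 at least 90% were from shaft keratins and keratin-associated proteins, which left 2 and 1 mixed cells. An induced cell counted with the sheath had 2109 sheath and 142 shaft keratin UMIs. In 5 of the 14, nearly all member UMIs were of Krtap17-1 (57 to 112 UMIs), with at most 8 of other members. When a rich cell was taken as one with at least 1% of its UMIs from a program, 10 of 5178 control cells (0.193%, 0.093 to 0.355) and 14 of 5258 induced cells (0.266%, 0.146 to 0.446) were rich in the inner root sheath group. For shaft keratins with keratin-associated proteins there were 5 (0.097%, 0.031 to 0.225) and 8 (0.152%, 0.066 to 0.2996). No cell was rich in both. The log2 ratios of these shares were 0.46 (-0.81 to 1.79) and 0.66 (-1.14 to 2.61), within counting error, and 6 control and 10 induced cells lay between 0.5% and 2% for the sheath, 6 and 12 for the shaft.

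**Figure D4:**
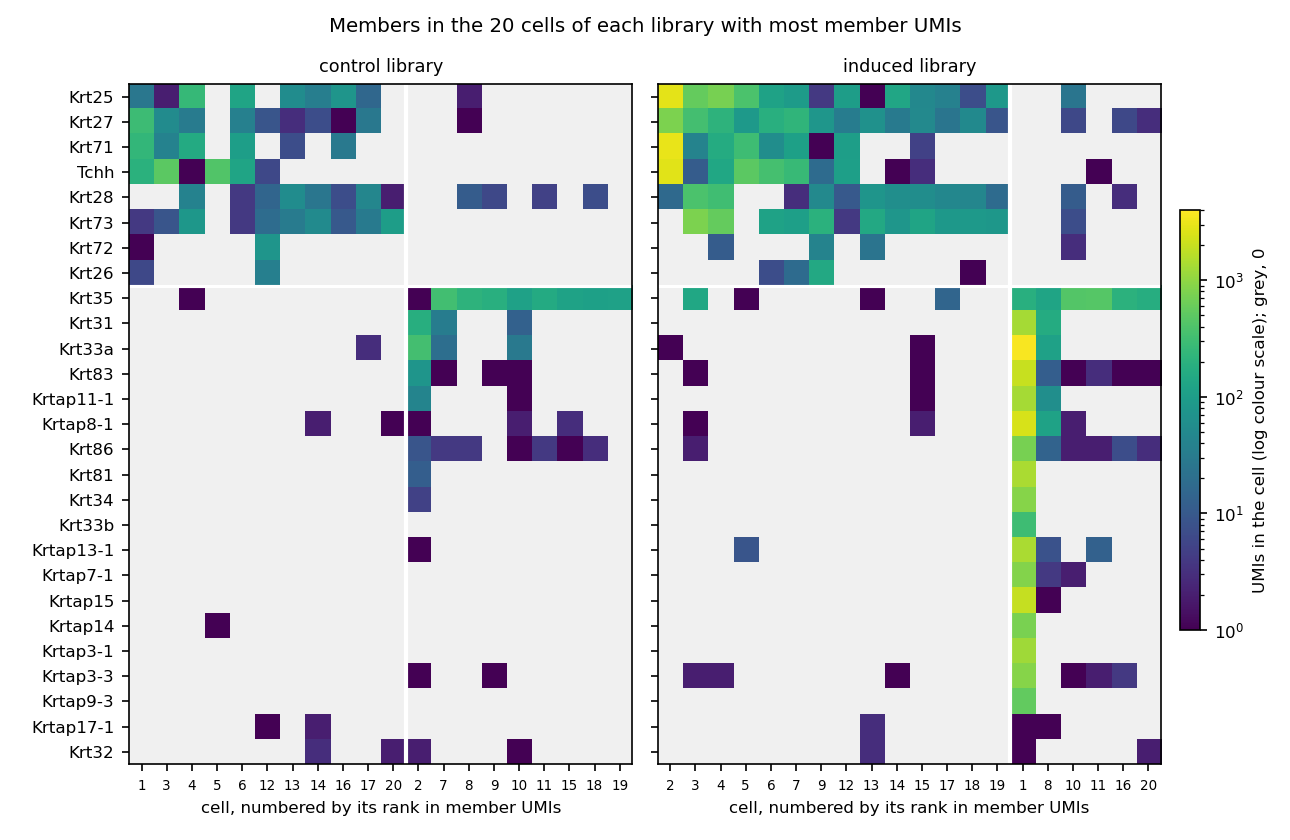
UMIs of 27 members (rows, log colour scale, grey for 0) in the 20 cells with most member UMIs of each library (columns, numbered by rank), with cells mostly of the sheath program to the left of the white line and mostly of the shaft program to the right. The first 8 rows are inner root sheath genes, the others shaft keratins and keratin-associated proteins, and the cells fall into blocks with little overlap; rank 1 of the induced library fills nearly all shaft rows.

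Among the shaft keratins, the few cells with at least 5 UMIs of Krt31 or Krt83 all held Krt33a, while Krt35 was missing from some of them. Over both libraries, 47 cells had at least 5 UMIs of Krt35, and 5 of them had 5 UMIs of Krt31. In the other direction, 5 of the 6 cells with Krt31 had Krt35, and all 6 had Krt33a. All 4 cells with Krt83 had Krt31, Krt33a and Krtap11-1 as well, and 3 had Krt35. The control cell with most shaft UMIs had 75 UMIs of Krt83 but 1 of Krt35. Krt34 and Krt81 reached 5 UMIs in 2 cells, which also had Krt83 and of which 1 had Krt35. Krtap3-1 reached 5 UMIs in 1 cell, which had all the others. Krtap8-1 stood apart: of its 10 cells with at least 5 UMIs, 2 had Krt35 and the same number had Krt31, and of the 2 cells with Krtap15, 1 had Krt35. After thinning, where 1 UMI counts, Krt35 was in 4 of 18 cells with Krt31, 5 of 61 with Krt33a and 3 of 20 with Krt83. Several cells showed Krt35 almost alone: 1 induced cell had 448 UMIs of Krt35 with 13 of Krtap13-1 and 3 of Krt83, and 1 control cell had 211 of Krt35 with 54 of Hoxc13 and 22 of Lef1, a transcription factor of Wnt signalling in the matrix. An intermediate cell of the induced library had 162 UMIs of Krt31, 125 of Krt35, 119 of Krtap8-1, 117 of Krt33a and 60 of Krtap11-1. So few cells carry the late genes that this describes these cells only.

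In the sheath program, 14 of 15 cells with at least 5 UMIs of Krt71 had Krt25, 12 had Krt27 and 10 had Tchh. Tchh was wider, with 11 of its 103 cells having Krt25, and so was Krt73, with 23 of its 102 cells. The cuticle keratins were highest in a few cells: 1 control cell had 75 UMIs of Krt72, 36 of Krt26 and 19 of Krt73, with 15 of Krt28 and 9 of Krt27, and 1 induced cell had 202 of Krt73, 151 of Krt26 and 41 of Krt72, with 79 of Krt27, 50 of Krt28 and 18 of Tchh. All 4 cells with Krt72 had Krt73, Krt28 and Krt27, all 5 cells with Krt26 had Krt27 and Tchh, and 9 of the 15 cells with Krt71 had Krt73. A further control cell had 417 UMIs of Tchh with 129 of Krt75, a companion layer keratin, and 37 of Hoxc13, and no UMI of another inner root sheath gene or of Gata3. Tchh alone placed this cell with the sheath.

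Of the cells with at least 60 member UMIs, 18 of 26 in the control and 25 of 36 in the induced library fell in 1 cluster, formed without the members and called here by its leading gene the S100a3 cluster. Its leading genes were S100a3, Gm49425, Mt4, Krt87, Prr9, Gprc5d, Psors1c2, Shh, Msx1 and Msx2. It had 7 of 7 matrix markers raised, 4 of 8 of the inner root sheath and 5 of 10 of the shaft, so no single lineage name was given. Hoxc13, Lef1 and Msx2 stand on both the matrix and the shaft list and count in both. It held 72 control and 76 induced cells, with medians of 22342 and 18518 UMIs. Within it, the inner root sheath group had 1417 CPM in the control and 10109 in the induced library. The shaft keratins had 1333 and 7700 CPM, and the keratin-associated proteins 41.9 and 9055 CPM. Of 48 members with 20 UMIs there, 44 were at least 2-fold higher (10.4% of all genes) and none lower (8.20%). Of the 30 keratin-associated proteins among them, 27 had 3 or fewer UMIs in the control cells of the cluster and reached the minimum through the induced library, so this count too supports nothing by itself. Without the top cell of each group in each library, the levels were 1009 and 4662 CPM for the inner root sheath group, 1001 and 1579 CPM for the shaft keratins, and 17.9 and 251.5 CPM for the keratin-associated proteins. Without the top sheath cell and the top shaft cell of each library, 13 of 20 members were at least 2-fold higher (9.91% of all genes) and none lower (7.48%): 6 of 8 inner root sheath genes, 3 of 7 shaft keratins (Krt31, Krt33a and Krt83) and 4 of 5 keratin-associated proteins, of which 3 again had 3 or fewer control UMIs and so could only be higher.

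Inside the S100a3 cluster, the share of cells with inner root sheath UMIs was higher in the induced library; intervals of such shares cover the counting of cells within these 2 libraries, not the spread between animals. After thinning each cell to 2000 UMIs, 20 of 72 control cells (27.8%, 17.9 to 39.6) and 45 of 74 induced cells (60.8%, 48.8 to 72.0) had at least 1. Unthinned, the shares were 76.4% and 85.5%. Krt28 was found in 20.8% and 43.2% of thinned cells, Krt27 in 13.9% and 33.8%, Krt25 in 11.1% and 25.7%, and Krt73 in 9.72% and 18.9%. Shaft keratins were found in 29.2% (19.0 to 41.1) and 36.5% (25.6 to 48.5), and keratin-associated proteins in 5.56% (1.53 to 13.6) and 10.8% (4.78 to 20.2). Non-epithelial cells give a background, in which free RNA and doublets were not told apart. With medians of 9963 and 6560 UMIs, their thinned shares were 2.01% and 6.18% for the inner root sheath group, 1.16% and 3.42% for the shaft, and 0.529% and 3.82% for the keratin-associated proteins. The shares in the cluster lay above these, and the background itself was higher in the induced library. Unthinned, cells with at least 10 inner root sheath UMIs numbered 19 of 72 and 31 of 76, with at least 100 they numbered 6 and 13, and with at least 1000, 0 and 3. Cells with at least 10 shaft keratin UMIs numbered 19 and 21, and with at least 100, 9 and 9. At least 10 UMIs of both programs were found in 5 control and 7 induced cells. Fibroblast markers were also present in the cluster, at a summed 594.4 CPM in the control and 636.2 in the induced library against 101.1 and 41.7 in other epithelial cells, with none of the 7 at 0, and their part in these values was not tested. Some other marker lists differed there, top cells included. The outer root sheath and upper follicle list had 2490 and 1076 CPM, and the suprabasal list 294.0 and 628.0. Without members, the inner root sheath list had 1128 and 2147 CPM and the shaft list 1115 and 3730. The matrix list had 1217 and 1265 CPM. Whether the cluster held the same kinds of cells in both libraries was not tested.

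The share of each gene's UMIs that lay in the S100a3 cluster separated the genes. Krt35 was found there in both libraries, with 96.3% of its control and 94.0% of its induced UMIs. For Krt25 the share was 18.7% in the control and 82.9% in the induced library, for Krt71 29.6% and 82.1%, for Krt73 10.6% and 70.2%, and for Tchh 38.3% and 51.7%. Krt31 had 79.9% and 95.003% and Krt33a 81.5% and 94.8%. Single cells weigh on these shares: without the cell with most UMIs of the gene in each library they were 28.7% and 66.4% for Krt25, 6.56% and 30.3% for Krt71, 11.5% and 61.5% for Krt73, 25.9% and 13.5% for Tchh, 44.8% and 69.5% for Krt31, 37.8% and 45.04% for Krt33a, and 95.5% and 92.7% for Krt35. Krt32 (2.95% and 4.80%) and Krtap17-1 (2.28% and 0.549%) lay almost wholly outside it.

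**Figure D5:**
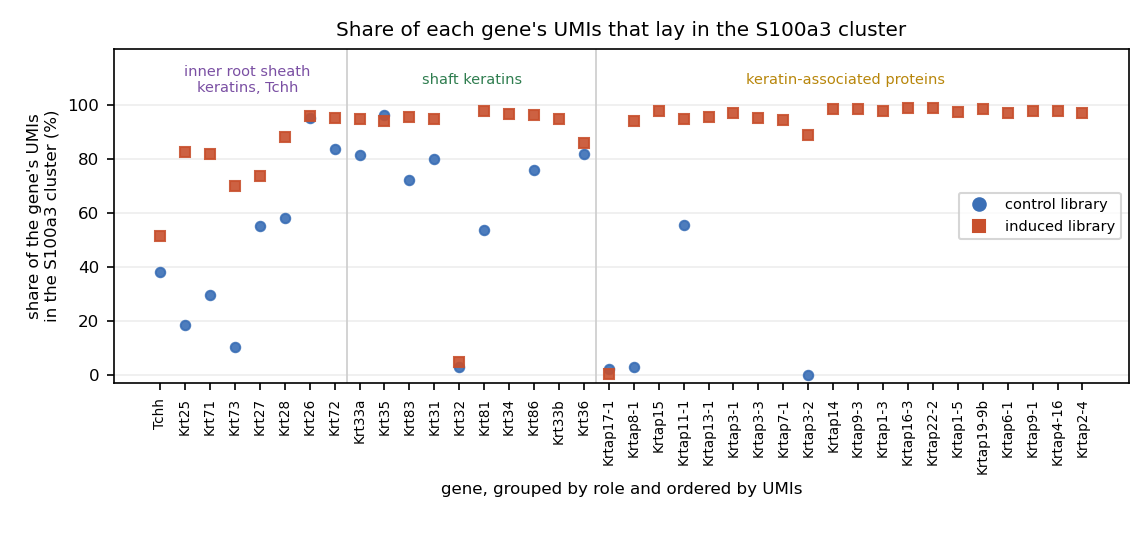
Share of the UMIs of each gene with at least 100 UMIs over both libraries that lay in the S100a3 cluster (vertical axis, %), for the control (blue circles) and induced library (orange squares), shown where a library had at least 20 UMIs of the gene. Krt32 and Krtap17-1 lie below 5% in both libraries and Krt35 above 94% in both, while Krt25, Krt71 and Krt73 lie between 10.6% and 29.6% in the control and above 70% in the induced library; for Krt71 the induced value falls to 30.3% without 1 cell.

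In the other epithelial cells the groups were closer between the libraries. The inner root sheath group had 57.2 CPM (55.6 to 58.9) and 61.5 CPM (60.05 to 63.1), the shaft keratins 15.3 and 9.57 CPM, and the keratin-associated proteins 15.9 and 36.7 CPM. Of 24 members with 20 UMIs there, 10 were at least 2-fold higher (11.5% of all genes), none of them an inner root sheath gene and 4 of them (Krtap3-1, Krtap3-3, Krtap13-1 and Krtap15) with 3 or fewer control UMIs, and Krt32 alone was at least 2-fold lower (10.3%). Non-epithelial cells had 11.1 and 28.9 CPM of the inner root sheath group, 4.03 and 13.5 CPM of shaft keratins and 2.50 and 18.7 CPM of keratin-associated proteins. In these cells, which should lack the genes, all 3 groups were thus higher in the induced library, whereas in the other epithelial cells the shaft keratin sum was lower (log2 -0.67). Krt32 made up 1009 of the 1265 control and 429 of the 999 induced UMIs of that sum: the other shaft keratins had 3.09 and 5.46 CPM there (log2 0.82, 0.61 to 1.04), 4 of the 8 shaft keratins tested were at least 2-fold higher (Krt34, Krt81, Krt83 and Krt86), and the keratin-associated proteins other than Krtap17-1 had 4.598 and 5.74 CPM (log2 0.32, 0.13 to 0.51). In the non-epithelial cells, shaft keratins other than Krt32 had 2.95 and 12.5 CPM. Keratin-associated proteins other than Krtap17-1 had 2.06 and 14.1 CPM there. In the induced library both values lay above those of the other epithelial cells. The part of free RNA in the values of single epithelial cells with 1 or 2 UMIs was not tested.

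Krtap17-1 was the keratin-associated protein spread over the most induced cells among the genes named here, and its top induced cell held 3.42% of its UMIs. It lay in follicle clusters led by other genes. A cluster led by Bex1, of 418 induced cells and 1 control cell, held 1619 of its UMIs, in 180 cells. Of 6 clusters with at least 20 cells of each library and 20 of its UMIs, its level was higher in the induced library in 5 and lower in 1, the S100a3 cluster (11.8 and 10.5 CPM, from 22 and 18 UMIs). It was 24.5 against 966.2 CPM in the cluster led by Sfrp1, Tbx1, Nr4a1 and Lhx2 (460 control and 36 induced cells), 247.1 against 560.5 CPM in that led by Tgfb2 and Pthlh (130 and 26 cells), 82.1 against 165.3 CPM in that led by Sfrp1, Tbx1 and Shisa2 (135 and 109 cells), and 176.5 against 652.5 CPM in that led by Nppc and Sfrp1 (107 and 21 cells). The 2 induced cells with most, 112 and 110 UMIs, had 223 and 158 UMIs of Krt14, the type I keratin of basal cells, and at most 1 UMI of a shaft keratin.

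Krt32 was likewise spread thinly, its top control cell holding 2.09% of its UMIs. In the cluster led by Pinlyp, Cst6 and Krt75, with 131 control and 142 induced cells, it had 26.6 and 23.2 CPM. Of 5 clusters with at least 20 cells of each library and 20 of its UMIs, its level was lower in the induced library in 4 and higher in 1. Of its 1052 control UMIs, 800 (76.05%) lay in clusters with at least 95% control cells, such as 1 led by Serpinb12 and Krt1 (254 control cells, 163 UMIs, 18.5 CPM), 1 led by H19 and Krt15 (384 control cells, 135 UMIs, 18.4 CPM) and 1 led by Fst and Cxcl10 (402 control cells, 132 UMIs, 19.99 CPM). In the cluster of 418 induced cells led by Bex1 it had 6.04 CPM. Krt73 had its main site in the control library outside the S100a3 cluster, which held 132 of its 1251 UMIs. A cluster led by Krt79, Klk8 and Klk7 with 150 control cells held 735 of them, in 55 cells (203.1 CPM). The nearest induced match of this cluster by leading gene, a cluster led by Krt79 and Dpysl3 with 63 induced cells, held 170 UMIs (130.1 CPM). Of these, 119 lay in 1 cell, without which 39.8 CPM remained, while the control cluster had 177.9 CPM without its own top cell.

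Genes that act with the members were described in the S100a3 cluster from lists. Of 14 regulators of hair differentiation, 8 were at least 2-fold higher in the induced library (10.4% of all genes there) and none lower (8.20%), with a median log2 ratio of 1.54 beside -0.05 over 9608 genes. Without the top sheath cell and the top shaft cell of each library, 7 of 13 were at least 2-fold higher (9.91%) and none lower (7.48%). Over all epithelial cells the list did not lean this way: 3 were at least 2-fold higher (11.8%) and 2 lower (10.1%), with a median of -0.02. Higher were Foxn1 (log2 1.89), Sp6 (1.94) and Msx1 (1.41), lower were Hoxc13 and Foxq1 (-1.28). Hoxc13 had 29.96 and 12.7 CPM (log2 -1.24) and Gata3 174.8 and 141.8 CPM (log2 -0.30). Msx1 and Msx2 are among the 8 but helped to define the cluster. In the cluster Hoxc13 was level, with 197.2 and 196.1 CPM, and so was Lef1, with 161.2 and 165.6 CPM. Gata3, a regulator of the inner root sheath, had 141.9 and 427.2 CPM (log2 1.59, 1.39 to 1.80), and Dlx3, a homeobox regulator of hair genes, had 69.3 and 217.7 CPM (log2 1.65, 1.36 to 1.95). Foxn1, the gene mutated in nude mice, had 9.14 and 60.9 CPM, and 7.604 and 27.5 CPM without those cells. Of 14 structural partners and cross-linking enzymes, 11 were measured and 7 were at least 2-fold higher (10.4% of all genes), 6 without those cells (9.91%). The 7 include S100a3, Mt4 and Psors1c2, which lead the cluster and which without those cells had 187.4 and 529.2, 291.1 and 262.4, and 27.2 and 96.8 CPM. Over all epithelial cells 5 of 12 were higher (11.8%) and none lower (10.1%), with a median of 0.62. In the cluster Tgm3, a transglutaminase that cross-links trichohyalin, had 26 and 75 UMIs. Of 7 other epithelial keratins measured there, none was at least 2-fold higher and 3 were lower (8.20% of all genes): Krt15 (144.6 and 11.1 CPM), Krt17 (1677 and 781.3 CPM) and Krt75 (76.3 and 28.1 CPM). Over all epithelial cells 1 of 8 was higher (11.8%), Krt6a, and 1 lower (10.1%), Krt15, while Krt17 (log2 0.49) and Krt75 (log2 0.89) stood on the other side.

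Outside the members, the genes with the highest fold in rich cells over other epithelial cells of the same library were named by rank. In cells rich in the inner root sheath group, Prr9 came first in both libraries, in 5 of 10 control cells and 14 of 14 induced cells, with 6459 and 3414 CPM there. Crym was also among the leading 5 in both, in 4 of 10 and 8 of 14 cells. In cells rich in the shaft program, S100a3 came first in both, in 5 of 5 control and 6 of 8 induced cells, with 12210 and 12375 CPM. The induced value leans on 1 cell. Within the S100a3 cluster, 3014 induced UMIs of S100a3 fell to 847 without the cell with most member UMIs. Gm49425, Krt87 and Mt4 were among the leading 5 in both libraries. Of these, S100a3, Mt4 and Crym are also on the list of structural partners. These cells were picked for their members, so this describes which genes go with them.

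Of the 77 genes, 28 had fewer than 20 UMIs: Krt82 (9 and 7 UMIs), Krt84 (4 and 5) and 26 keratin-associated proteins, 10 of which had no UMI in any kept cell. Krtap12-1, with 7 and 12 UMIs, was just below the minimum, and Krtap6-2, with 1 and 31, was the least counted gene above it. None of the 5 Krtap genes of chromosome 7 or the 2 of chromosome 1 reached it.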

How the data were processed

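The authors deposited raw counts of UMIs per gene and barcode for 2 libraries, made with the 10x Genomics 3′ v3.1 kit per the labels' protocols and with Cell Ranger 6.0.0 on mm10 per the submitters' processing notes. Cell-calling settings and the use of strand are not given in the sources used here. The members and gene lists were chosen with earlier results of these data known.

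Barcodes with at least 1000 UMIs, 500 genes and under 15% mitochondrial UMIs were kept. Doublets were left in. Scrublet's own threshold marked 3 and 1 cells and had not worked, so cells at or above the score that marks the top 7% were removed as an alternative (393 per library with ties, 7.59% and 7.47%); they held 2 of the 26 control cells and none of the 36 induced cells with 60 member UMIs. UMIs were summed per library and scaled to CPM with exact Poisson intervals. Ratios have exact conditional binomial intervals and shares Clopper-Pearson intervals, at 95%. Genes were called at 2-fold. A 0 was set to a floor of 3 UMIs per library. The median of a list also took such genes at that bound.

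Cells were clustered with scanpy 1.11.5 (10000 UMIs per cell, log scale, 2000 variable genes, 30 components, 15 neighbours, Leiden 0.10.2 at resolution 2.0, no integration), leaving out members, cell cycle, sex-linked, mitochondrial, ribosomal, haemoglobin and histone genes. A marker was raised when found in 25% of cells and 1.5-fold over others with 20 CPM added. Thinning to 2000 UMIs left out 84 and 406 shallower cells. Gene positions came from GENCODE vM21 (GRCm38). Keratin-associated proteins were not split by amino acid composition, since protein sequences were not used here. Given in full were the 4 members with most UMIs in each group and, over members with 100 UMIs, the 3 highest and 3 lowest ratios. The ratio and interval steps were tested on simulated data. Further tools were scipy 1.17.1 under Python 3.11.15, with numpy 2.4.6, matplotlib 3.10.9 and pandas 2.3.3.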

Additional observations from a re-analysis of the deposited data

Results flagged for a closer look

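Barcodes that the cell filter left out, 3894 of the control and 3856 of the induced library, held keratin-associated protein UMIs at a higher level than the kept cells. In the left-out barcodes of the induced library the level was 512.9 CPM (3371 UMIs, 14.8% of all such UMIs of that library), above the 234.1 CPM of the control library's left-out barcodes (1055 UMIs, 42.6%), and the main comparison does not use these barcodes. In 3 induced barcodes with 223, 274 and 205 genes, 67.0%, 63.5% and 63.2% of the UMIs came from members, led by Krtap22-2 with 72 UMIs in the first and by Krtap3-1 with 122 and 71 in the others. A control barcode with 11507 UMIs, of which 21.0% were mitochondrial, held 992 member UMIs, with 258 of Krtap8-1, 223 of Krt33a, 156 of Krt31 and 156 of Krt83. The reason why these barcodes are shallow or rich in mitochondrial UMIs was not tested.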

How the results depend on the processing

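With 1 library per group all values compare these libraries only, and genes with few UMIs or few cells have wide or 1-cell values. No paired analysis was possible because each group has 1 library and no replicate numbers. The alternatives that left out 1 cell, or the top sheath and shaft cells, of each library, or 1 gene of a group, were chosen after seeing the data. For the inner root sheath group (log2 1.43), the ratio was 1.49999 with doublets removed, 1.36 in epithelial cells only, 0.27 without the 10 cells with most member UMIs, 1.79 under a stricter cell filter, 1.55 scaled to the median gene, 1.36 with free RNA subtracted, 1.59 without the cell with most member UMIs, and 0.87 both without the cell with most UMIs of these genes and without the top sheath and shaft cells of each library. For shaft keratins (1.67) it was 1.59 in epithelial cells, 0.012 without 10 cells, 1.45 with no cell filter, 1.77 under the stricter filter, 1.79 scaled to the median gene 1.57 with free RNA subtracted and 2.09 without Krt32, and it reversed to -0.29 without the cell with most member UMIs and fell to -0.028, with an interval that includes no difference, both without the cell with most UMIs of these genes and without the top sheath and shaft cells. For keratin-associated proteins (3.53) it was 1.36 without 10 cells, 2.95 with no filter, 3.65 scaled to the median gene, 4.90 without Krtap17-1, 1.38 without the cell with most member UMIs, and 1.43 without the cell with most of these genes or the top sheath and shaft cells. Members at least 2-fold higher numbered 12 in place of 44 without 10 cells, 12 without the cell with most member UMIs and 15 without the top sheath and shaft cells. Members at least 2-fold lower, 1 at first (Krt32), numbered 3 without 10 cells (with Krt26 and Krt72), 3 with no cell filter (with Krt82 and Krtap28-10) and 2 with free RNA subtracted (with Krtap10-10). Of single genes, Krt72 (-0.40) changed sign with the cell filter. Its log2 ratio was 0.29 (-0.08 to 0.67) with no filter and 1.75 (0.91 to 2.67) under the stricter one. Krt31 (-0.41) and Krt33a (-0.53) reversed without the cell with most member UMIs, but not without their own top cells (1.05 and 1.22). In the library sums the removed cell itself accounts for the change. With no cell filter, the log2 ratio was 2.60 in place of 4.03 for Krt83, 2.29 for Krt33a and 1.60 for Krt31. Those of Krtap15, Krtap3-1, Krtap8-1 and Krtap11-1 also fell below their intervals. Shares of rich cells rest on few cells, and their log2 ratios ran from -0.022 to 1.11 for the sheath and from 0.48 to 1.43 for the shaft program, within intervals too wide to show stability. Of the other 54 alternatives of the main values, 22 stayed within the interval or within 1.5 times the count.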
